A study of Arabidopsis thaliana with 9 samples.

Results

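The heat shock group described here holds 36 of the 33323 gene identifiers in the count files of an Arabidopsis thaliana seedling study. Its members were chosen by gene name and class: HSP101 (1 gene), cytosolic HSP90 (3), HSP70 (5), small heat shock proteins (12), heat shock factors of classes A and B (10), and ROF2, BAG6, HSA32, DREB2A and MBF1C (5). All 36 were present in the files and matched the RefSeq annotation of TAIR10.1. Counts of transcript 3′ ends (QuantSeq) were made from 2-week-old seedlings on MS medium, in 3 libraries each of pca31, a line described as suppressing atrzf1, of the atrzf1 mutant, and of the Col-0 wild type (WT). The labels name no heat, drought or other treatment, no allele of either line and no sampling time, and they do not say whether libraries came from separate cultures, so p-values measure only the spread between these samples. Titles number the libraries of each genotype 1 to 3 without saying what a number stands for. The question put to these genotypes was whether the E3 ubiquitin ligase AtRZF1 and the pectin enzyme RGL1 shift target transcripts in opposite directions.

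Heat shock proteins are chaperones that hold, refold or disaggregate proteins, and many of their genes are switched on by heat shock factors that bind repeated GAA blocks, the heat shock element. In plants the HSFA1 factors start this response, HSFA2, HSFA3 and the HSFA7 factors extend it, and class B factors lack the activation domain of class A. Some members, such as HSC70-1, HSP90.2 and HSP90.3, are housekeeping chaperones with high transcript levels in unstressed tissue, while HSP101, HSP90.1 and the small heat shock proteins are known as heat-inducible.

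The heat shock element was searched in the RefSeq sequence as a short motif, GAANNTTC or TTCNNGAA, each of which reads the same on both strands, and as a long motif, GAANNTTCNNGAA or its reverse complement TTCNNGAANNTTC, each of which contains short motifs. Within 500 bases before the coding start the short motif lay in 30 of 36 members (83.3%) and in 33.9% of 27443 protein-coding genes, and the long motif in 14 members (38.9%) and 1.2% of those genes. Within 250 bases before the annotated gene start the shares were 36.1% of members and 16.1% of all genes for the short motif, and 16.7% and 0.386% for the long one. A match describes letters, not binding. The sites below show the long motif in capitals within 25 bases of TAIR10.1, for members that differed between replicate numbers in either direction and for HSFA2. The HSC70-1 site and the first AT3G09440 site hold the same capital letters. Sites of HSP70, HSC70-1, Hsp70-2, AT3G09440, HSP18.2 and HSFB2A lay inside the annotated gene, between its start and the coding start. Those of HSP90.1, AT1G53540, HSFA7A and HSFA2 lay outside it.
HSP90.1 (chr5:21352256-21352280, plus strand): cgaaaaGAACTTTCTGGAAttcgtt
HSP70 (chr3:3993848-3993872, minus strand): actcgtGAACGTTCTCGAAagctct
HSC70-1 (chr5:556556-556580, minus strand): accatcGAACATTCTCGAAacattt
Hsp70-2 (chr5:552688-552712, minus strand): attacaGAACATTCTGGAAactcaa
AT3G09440, first site (chr3:2905896-2905920, minus strand): cgaaccGAACATTCTCGAAcctttt
AT3G09440, second site (chr3:2905767-2905791, minus strand): gccatcGAACCTTCTCGAAactcga
HSP18.2 (chr5:24062390-24062414, plus strand): acaaacGAAACTTCCTGAAatgcca
AT1G53540 (chr1:19980240-19980264, plus strand): acaccaGAAACTTCTTGAAagcacc
HSFA7A, first site (chr3:19264943-19264967, plus strand): acgaagTTCCAGAAGTTTCgactat
HSFA7A, second site (chr3:19264993-19265017, plus strand): aaccgtTTCCAGAAGTTTCtaattt
HSFB2A (chr5:24916060-24916084, plus strand): ccatagGAAGTTTCTTGAAgcctaa
HSFA2 (chr2:11135530-11135554, plus strand): agtaacGAAGTTTCTGGAAcattgt

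Longer stretches before the annotated gene start are shown for the small heat shock gene with the highest mean level (HSP17.4), for the member with the largest difference between replicate numbers (AT5G51440) and for the transcription factor gene DREB2A, with short motifs in capitals, joined where they overlap.
HSP17.4 (chr3:16984868-16984987, minus strand): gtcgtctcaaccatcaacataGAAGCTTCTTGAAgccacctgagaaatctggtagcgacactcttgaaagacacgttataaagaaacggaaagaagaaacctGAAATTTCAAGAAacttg
AT5G51440 (chr5:20891013-20891132, plus strand): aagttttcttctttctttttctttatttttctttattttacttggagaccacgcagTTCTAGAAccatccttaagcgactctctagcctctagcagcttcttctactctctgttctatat
DREB2A (chr5:1601987-1602106, plus strand): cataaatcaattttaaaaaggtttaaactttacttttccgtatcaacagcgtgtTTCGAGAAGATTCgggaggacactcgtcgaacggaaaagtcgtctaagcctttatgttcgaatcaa

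Libraries held 22478803 to 33073605 counts, of which the members took 0.084% to 0.12%. AtRZF1 itself was at 1.16 to 3.18 CPM (counts scaled to library size) in pca31 and 2.11 to 4.6 CPM in atrzf1, against 24 to 31 CPM in WT, so both mutant lines carried the low AtRZF1 level. Spearman correlations across genes were higher among libraries of 1 number (0.965 to 0.982) than among those of 1 genotype (0.855 to 0.963). The pca31 library of number 2 had a TMM scaling factor of 1.05, against 0.82 in both other libraries of that number, and its omission is among the alternatives. The number 3 libraries stood apart in tissue markers. A list of 19 root genes summed to 2100, 1580 and 2280 CPM in pca31, atrzf1 and WT of number 3. The gene PYK10 alone gave 1650, 1340 and 1850 CPM of these sums. In the 6 libraries of numbers 1 and 2 the list summed to 67.8 to 184 CPM. The root hair gene EXPA7 was at 0 counts in all 6. In seedling RNA fewer cells of a type and less RNA per cell cannot be told apart.

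No heat shock transcript passed the test between genotypes. After a filter on low counts 30 of the 36 members were tested beside 20672 genes in all. By edgeR's quasi-likelihood test with Benjamini-Hochberg adjustment, 0 of 30 were called at 0.05 in pca31 against WT, in atrzf1 against WT and in pca31 against atrzf1, where 0.00484%, 0% and 0.00484% of all tested genes were called. The other fits also called 0 members in each. Over all genes edgeR with the replicate number as a block called 0.0435%, 0.0339% and 0.00484% in that order of comparisons, DESeq2 called 0.0246%, 0.0197% and 0.00493%, DESeq2 with the block called 0.561%, 0.227% and 0.00967%, and limma-voom called 0.00484%, 0% and 0.00484%. On counts simulated with the number effects of these libraries, edgeR and limma-voom without the block recovered none of the genes changed between genotypes. With the block they recovered nearly all, so that 0 calls without the block do not show that genotypes are alike. The seeded changes all had the same fold size, larger than that of HSP70 or HSP90.1 here, and every gene had the same spread. Recovery with the block therefore does not show that smaller or noisier differences of members would be found. Without the block 0 members had an unadjusted p under 0.05, against 0.919%, 0.556% and 0.213% of all genes. With the block the number was 3, 3 and 2 members in the same order of comparisons, against 8.44%, 3.73% and 4.42% of all genes. The log2 fold change was above 0 in 14 of 30 members for pca31 against WT (51.7% of all genes), in 5 of 30 for atrzf1 against WT (50.2%) and in 22 of 30 for pca31 against atrzf1 (50.1%), with medians of -0.01, -0.15 and 0.24. With the block these medians were 0.03, -0.25 and 0.23, and leaving out 1 library without the block turned each of them, over ranges of -0.34 to 0.5, -0.69 to 0.27 and -0.17 to 0.64. Among the tested members, library groups did not overlap for 1, HSFA2, lower in pca31 than in WT, and for 0 in the other directions and comparisons, against 2.89% of all genes higher in pca31 than in WT, 1.3% higher and 1.14% lower in atrzf1 than in WT, and 1.79% higher and 1.27% lower in pca31 than in atrzf1. The same direction at all 3 numbers was found for 1 member higher (15.7% of all genes) and 5 lower (14.3%) in pca31 against WT, 1 higher (12.1%) and 9 lower (13.1%) in atrzf1 against WT, and 6 higher (12.6%) and 4 lower (11.4%) in pca31 against atrzf1. These 3 comparisons share libraries.

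HSP70 (AT3G12580, chr3:3991117-3993886), a heat-inducible cytosolic HSP70, had the smallest adjusted p of any member in both comparisons with WT once the block was used, and is described for that reason after its values were seen. Its levels in libraries 3, 1 and 2 were 34.1, 19.5 and 6.5 CPM in pca31, 29.6, 20.9 and 5.08 CPM in atrzf1, and 46.8, 29.6 and 11.7 CPM in WT. Each mutant library was below the WT library of its own number, but across numbers the 3 groups overlapped. Without the block the log2 fold changes were -0.55 ± 0.76 (SE) in pca31 and -0.66 ± 0.77 in atrzf1 against WT, each with edgeR adjusted p = 1. The block gave -0.63 ± 0.18 for pca31 (adjusted p = 0.389 in edgeR, 0.123 in DESeq2) and -0.77 ± 0.18 for atrzf1 (adjusted p = 0.532 in edgeR, 0.0841 in DESeq2). Without the block, leaving out 1 library moved the pca31 value between -1.2 (without pca31 library 3) and -0.05 (without WT library 3), and the atrzf1 value between -1.18 (without atrzf1 library 3) and -0.16 (without WT library 3). HSFA2 was the other member lower in all 6 mutant libraries than in WT of the same number, a pattern found in 4.67% of all tested genes. This factor is induced by heat and had few counts: pca31 libraries 3, 1 and 2 held 15, 17 and 16, the atrzf1 libraries 20, 10 and 0, and the WT libraries 27, 20 and 31. Its pca31 and WT libraries did not overlap, which held downward for 2.06% of all genes. Without the block it had the largest difference of any tested member in both comparisons with WT, at -1.02 ± 1.06 in pca31 and -1.50 ± 1.08 in atrzf1 (edgeR adjusted p = 1 each). The atrzf1 value ran between -2.55 without atrzf1 library 3 and -0.94 without atrzf1 library 2. With the block, HSP17.6II (1.14) and HSP17.6A (1.08) exceeded HSFA2 (-1.04) in size in pca31 against WT, none of them called.

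**Figure D1:**
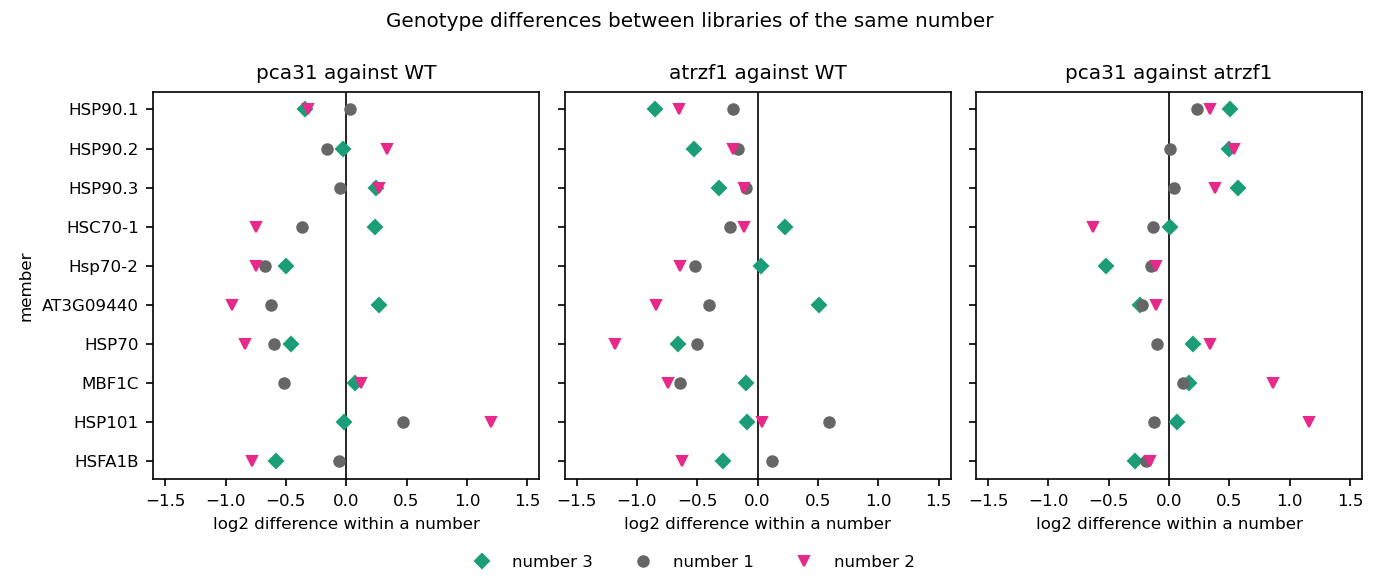
Log2 difference in CPM between libraries of the same replicate number (x axis) for 10 members (y axis) in 3 genotype comparisons, 1 point per number. HSP70 lay below 0 at all 3 numbers in both comparisons with WT, from -0.84 to -0.46 in pca31 and from -1.18 to -0.5 in atrzf1, while HSC70-1 lay on both sides of 0.

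In pca31 against atrzf1, HSP90.1 differed by 0.51, 0.23 and 0.34 on the log2 scale in numbers 3, 1 and 2. HSP90.2 differed by 0.5, 0.01 and 0.54 and HSP90.3 by 0.57, 0.04 and 0.38, so both were near 0 in number 1, and the fit with the block gave 0.35 ± 0.16 for HSP90.2 and 0.33 ± 0.15 for HSP90.3 (edgeR adjusted p = 0.956 each). Against WT, HSP90.1 was lower at every number in atrzf1 but not in pca31, where number 1 differed by 0.03. Without the block HSP90.1 gave -0.25 ± 0.88 in pca31 and -0.67 ± 0.89 in atrzf1 against WT. With the block edgeR gave -0.57 ± 0.17 for atrzf1, not called, and DESeq2 an adjusted p of 0.634. Differences of HSP90.1 from WT within numbers 3, 1 and 2 were -0.85, -0.2 and -0.65 in atrzf1. In pca31 they were -0.34, 0.03 and -0.32. In fits without the block, leaving out WT library 3 turned the values to 0.83 in pca31 and 0.42 in atrzf1. The pca31 value was -1.19 without pca31 library 3, and the atrzf1 value -1.43 without atrzf1 library 3. The next largest changes in pca31 against WT were HSFA7A at 0.93 ± 0.83, HSP17.6II at 0.74 ± 1.63, Hsp70-2 at -0.67 ± 0.51 and AT3G09440 at -0.66 ± 0.79. In atrzf1 against WT they were HSFA1D at -0.64 ± 0.55 and DREB2A at -0.61 ± 0.78, and in pca31 against atrzf1 they were HSP17.6II at 0.79 ± 1.63, HSFA7A at 0.71 ± 0.83 and DREB2A at 0.68 ± 0.78, HSFA2 at 0.48 ± 1.06 and HSP17.6A at 0.47 ± 1.42. None of these changes, from fits without the block, passed the test. Within numbers 3, 1 and 2, pca31 differed from WT by -0.5, -0.67 and -0.75 for Hsp70-2. For HSP17.6II the differences were 0.49, 0.59 and 1.27. HSFA7A (1.09, -0.48 and 1.74) and AT3G09440 (0.27, -0.62 and -0.95) lay on both sides of 0. Leaving out 1 library without the block moved the changes widely, and such ranges also hold differences between numbers. In pca31 against WT the ranges were 0.11 (without pca31 library 3) to 1.46 (without WT library 3) for HSFA7A, 0.17 (without WT library 2) to 1.21 (without WT library 3) for HSP17.6II, -1.05 (without WT library 3) to -0.36 (without WT library 1) for Hsp70-2 and -1.19 (without pca31 library 1) to -0.17 (without WT library 1) for AT3G09440. In pca31 against atrzf1 HSP17.6II ran from 0.22 without atrzf1 library 2 to 4.6 without atrzf1 library 3.

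The replicate numbers separated the same transcripts. With genotype and number as terms, 24 of the 30 tested members differed in number 3 against numbers 1 and 2 (edgeR adjusted p under 0.05), 18 higher and 6 lower, where 45.7% of all tested genes were called, 23.6% higher and 22.1% lower. The median log2 fold change was 1.14 over the members and 0.03 over all genes. Groups did not overlap for 12 members that were higher and 4 that were lower, against 18.9% and 17.3% of all genes. Both directions occurred within the HSP90, HSP70 and small heat shock families, which are described in turn.

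**Figure D2:**
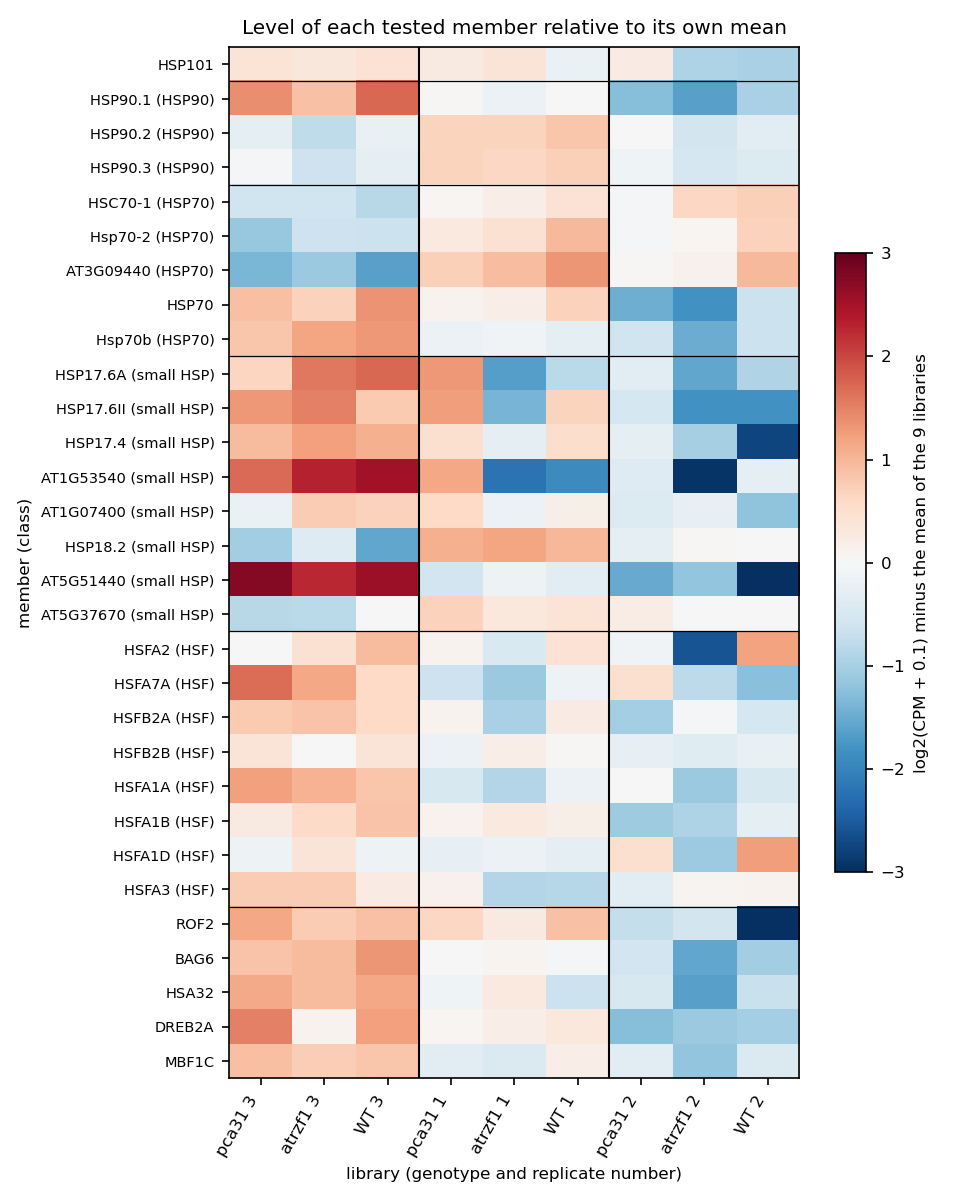
Level of each of the 30 tested members in each library relative to its own mean over the 9 libraries, as log2(CPM + 0.1), with colours limited to ±3. The number 3 libraries, on the left, were above the mean for most members. HSC70-1, Hsp70-2, AT3G09440, HSP90.2, HSP90.3 and HSP18.2 were below it in all 3.

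Of the HSP90 chaperones, HSP90.1 (AT5G52640, chr5:21352557-21355147) is the heat-inducible one. It reached 53.4, 37.6 and 67.7 CPM in the number 3 libraries of pca31, atrzf1 and WT, against 21, 18 and 20.6 CPM in number 1 and 8.29, 6.53 and 10.3 CPM in number 2. All number 3 libraries lay above all others, a log2 fold change of 2.01 ± 0.14 (4.03-fold, edgeR adjusted p = 6.82e-07). HSP90.2 (AT5G56030), a housekeeping HSP90, was at 102, 72.3 and 104 CPM in number 3, against 194, 193 and 216 CPM in number 1 and 122, 83.6 and 96 CPM in number 2. Its number 3 libraries thus lay below number 1 and overlapped number 2, with a pooled change of -0.63 ± 0.14 (edgeR adjusted p = 0.00365). HSP90.3 (AT5G56010), its close copy, had 97, 65.5 and 81.7 CPM in number 3, 160, 155 and 166 CPM in number 1 and 91.7, 70.5 and 76 CPM in number 2, a change of -0.48 ± 0.13 (adjusted p = 0.011). With libraries scaled by their totals alone, HSP90.2 and HSP90.3 were at -0.27 and -0.12 and no longer called, in a fit where the median of all genes was 0.39. HSP90.1 made up 23.1 ± 3.12% (SD, n = 3) of the summed level of these 3 members in number 3, against 5.22 ± 0.36% in number 1 and 4.49 ± 1.03% in number 2. Hsp81.4 (AT5G56000), a further cytosolic HSP90 at 24.7 to 47.9 CPM, is no member and not in that sum, and its coding sequence is 95.4% identical to HSP90.3. The coding sequences of HSP90.2 and HSP90.3 are 91.9% identical but the last 300 bases of the transcripts, where these reads fall, only 51%, and how reads that fit both were counted is not given in the sources used here.

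In the HSP70 family the 2 genes known as heat-inducible were higher and the 3 others lower in number 3. HSP70, whose levels are given above, was 1.47 ± 0.15 higher on the log2 scale (edgeR adjusted p = 1.15e-05), with atrzf1 library 3 at the level of WT library 1. Hsp70b (AT1G16030), known as strictly heat-inducible, was at 5.68, 7.25 and 7.94 CPM in number 3 of pca31, atrzf1 and WT, against 2.77, 2.91 and 2.56 CPM in number 1 and 2.05, 1.05 and 1.97 CPM in number 2. Its groups did not overlap (1.69 ± 0.26, adjusted p = 0.000269).

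HSC70-1 (AT5G02500, chr5:553745-556623), the main housekeeping HSP70 and the most abundant member, had 348, 345 and 295 CPM in number 3, against 549, 602 and 708 CPM in number 1 and 515, 799 and 865 CPM in number 2. All number 3 libraries lay below all others (-1.0 ± 0.17, 2-fold lower, adjusted p = 0.000472). Hsp70-2 (AT5G02490), its tandem neighbour, had 3.56, 5.14 and 5.03 CPM in number 3, 9.75, 10.9 and 15.6 CPM in number 1 and 7.72, 8.28 and 13 CPM in number 2, again without overlap (-1.22 ± 0.19, adjusted p = 0.000283). AT3G09440, annotated as an HSP70 family protein, had 9.64, 11.4 and 7.98 CPM in number 3, against 40.8, 47.5 and 62.7 CPM in number 1 and 25.4, 27.3 and 49.1 CPM in number 2. That was the largest fall of any member, at -2.04 ± 0.22 (4.1-fold lower, adjusted p = 2.39e-05). It overlaps AT3G09430 on the opposite strand by 863 bases, and since the strand setting of the counting is not given, reads of the pair cannot be told apart. HSP70 and Hsp70b together made up 11.4 ± 3.2% of the summed HSP70 level in number 3, 3.67 ± 0.238% in number 1 and 1.24 ± 0.443% in number 2 (SD, n = 3 each). As the printed sites show, the long heat shock motif lay before the coding start of HSP70 and of all 3 family members that were lower. In these genes it lay inside the annotated gene, after its start. Within 500 bases before the coding start it lay in 6 of 18 members that were higher and 4 of 6 that were lower, and within 250 bases before the gene start in 4 of 18 and 0 of 6.

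**Figure D3:**
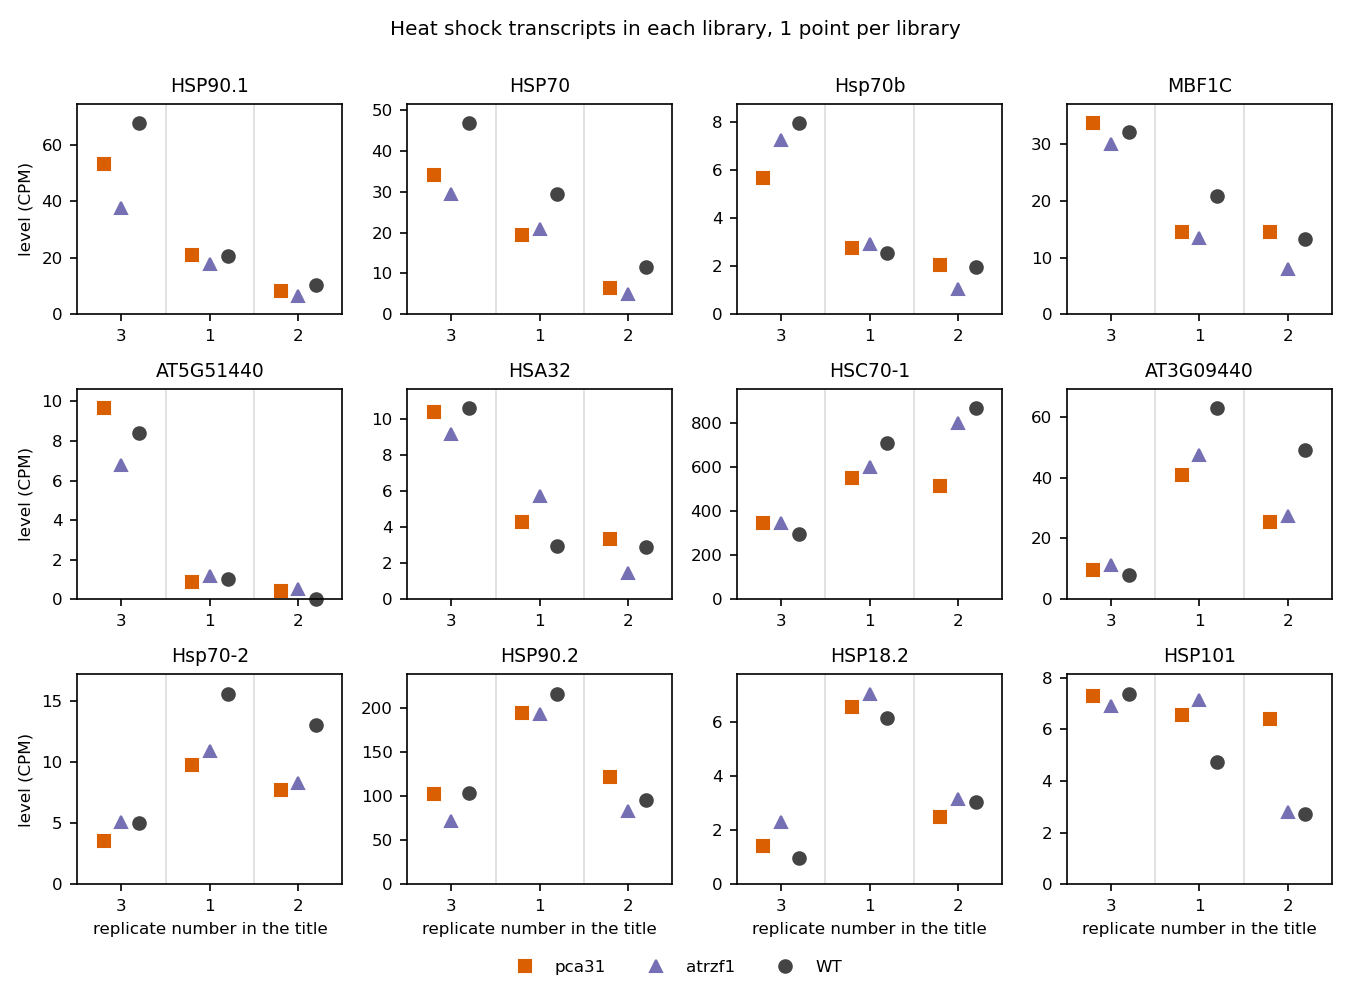
Level (CPM, linear axis) of 12 members in each of the 9 libraries, by replicate number (x axis) and genotype (symbols). HSP90.1, Hsp70b, MBF1C, AT5G51440 and HSA32 were higher in every number 3 library than in any other, whereas HSC70-1, AT3G09440, Hsp70-2 and HSP18.2 were lower.

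HSP101 (AT1G74310, chr1:27936508-27940369), the disaggregase needed for acquired heat tolerance, did not pass the test. Its levels were 7.28, 6.92 and 7.39 CPM in number 3, 6.57, 7.14 and 4.73 CPM in number 1 and 6.42, 2.8 and 2.73 CPM in number 2. Number 3 was the most even of the numbers, and atrzf1 library 1 lay within its range. The change was 0.59 ± 0.25 (edgeR adjusted p = 0.0724), and with libraries scaled by totals alone it was 0.94 (adjusted p = 0.0144). The 10 genes whose log2 CPM followed HSP101 most closely over the 9 libraries, of 13188 genes with a mean of at least 5 CPM, were HAB2 (Pearson r = 0.98), PUX1 (0.976), IMB1 (0.973), AT4G17430 (0.973), AT2G26600 (0.972), AT1G80870 (0.972), AT1G19660 (0.971), AT3G57910 (0.968), AT1G56700 (0.968) and HOS15 (0.967). None of them is a member, and the libraries share their replicate number, so these values describe likeness only.

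Small heat shock proteins, which bind unfolding proteins until HSP70 and HSP101 act on them, were low in every library. Of 12 members 8 were tested, and 5 were higher, 1 lower and 2 not called in number 3. AT5G51440, annotated as an HSP20-like chaperone, had the largest rise of any member: 9.64, 6.81 and 8.41 CPM in number 3 of pca31, atrzf1 and WT, against 0.869, 1.18 and 1.03 CPM in number 1 and 0.405, 0.526 and 0 CPM in number 2 (3.9 ± 0.43, 14.9-fold, edgeR adjusted p = 2.75e-05). AT1G53540, a further HSP20-like gene, had 2.39, 3.75 and 4.33 CPM in number 3, 1.64, 0.0676 and 0.107 CPM in number 1 and 0.491, 0 and 0.546 CPM in number 2. The groups of both genes were apart, and AT1G53540 changed by 3.59 ± 0.82 (adjusted p = 0.00376), or by 2.5 without atrzf1 library 3 and 4.81 without pca31 library 3.

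HSP17.4, a cytosolic class I protein, was at 6.11, 7.43 and 6.68 CPM in number 3, 4.41, 2.6 and 4.59 CPM in number 1 and 2.6, 1.53 and 0.378 CPM in number 2 (1.54 ± 0.38, adjusted p = 0.0059). Genes on the opposite strand overlap it by 453 bases (AT3G07365, a long non-coding RNA) and 60 bases (AT3G46220), and their reads cannot be told apart from its own. HSP17.6A and HSP17.6II, tandem class II genes, had at most 33 and 25 counts in any library and gave 2.75 ± 0.88 and 2.68 ± 0.95 (adjusted p = 0.0237 and 0.0366). HSP17.6A was at 0.565, 1.17 and 1.3 CPM in number 3, 0.934, 0.0338 and 0.142 CPM in number 1 and 0.231, 0.0438 and 0.126 CPM in number 2. HSP17.6II was at 0.764, 0.911 and 0.511 CPM in number 3, 0.74, 0.0338 and 0.462 CPM in number 1 and 0.145, 0 and 0 CPM in number 2. In both genes pca31 library 1 lay within the range of number 3, whereas atrzf1 library 1 had 1 count. HSP18.2, another class I protein, ran the other way, at 1.43, 2.33 and 0.983 CPM in number 3, 6.57, 7.07 and 6.18 CPM in number 1 and 2.51, 3.15 and 3.06 CPM in number 2 (-1.51 ± 0.29, adjusted p = 0.00116), without overlap. AT1G07400 (0.63 to 2.73 CPM) and AT5G37670 (0.897 to 2.77 CPM) were not called. HSP21, the chloroplast member, had 2 counts in all libraries together, and ATHSP22.0 of the endoplasmic reticulum, AT4G25200 of mitochondria and AT1G52560 stayed at or below 0.354 CPM and were not tested.

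**Figure D4:**
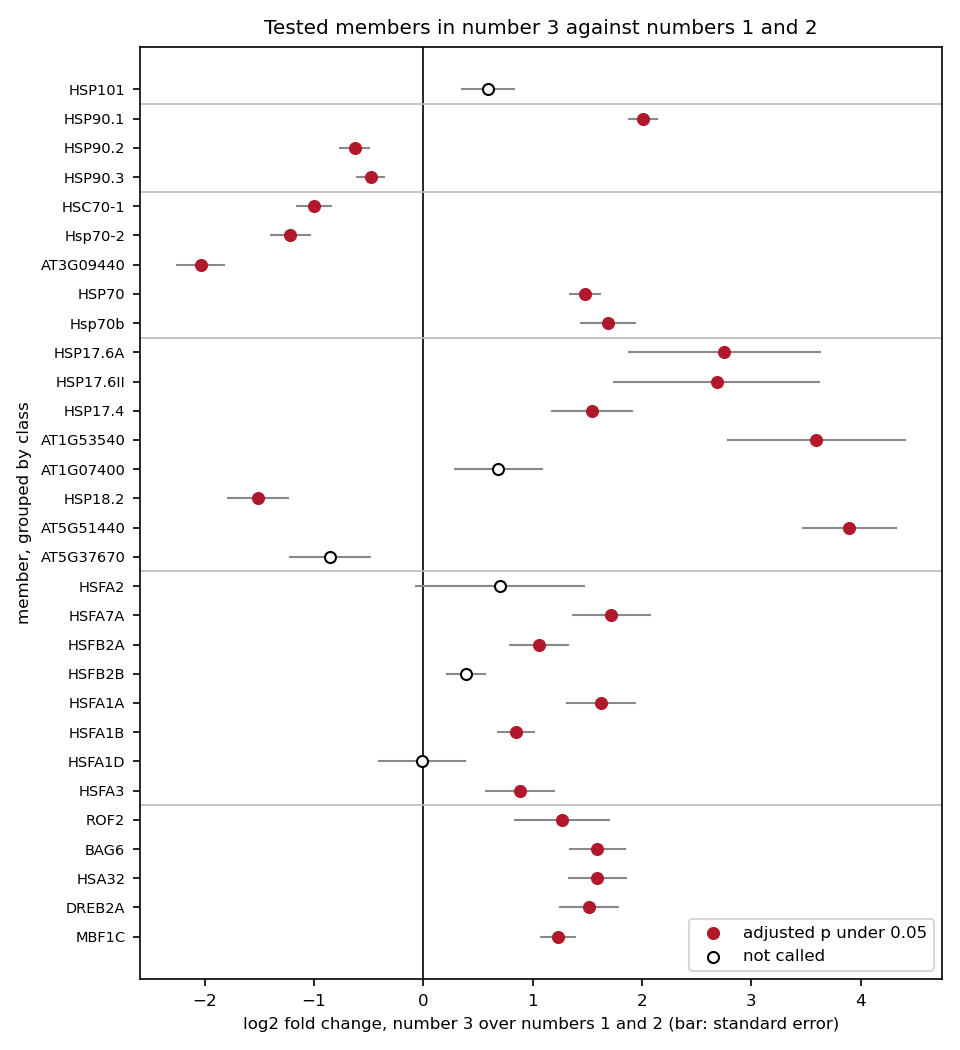
Log2 fold change of each tested member in number 3 against numbers 1 and 2 (x axis, bars are standard errors of the edgeR fit), grouped by class, with filled points for an adjusted p under 0.05. Calls in both directions lie within HSP90, HSP70 and the small heat shock proteins, while the 5 called heat shock factors and all 5 of ROF2, BAG6, HSA32, DREB2A and MBF1C lie above 0.

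Among the heat shock factors, 8 of 10 were tested, 5 were higher in number 3 and 0 lower. HSFA7A had 6.71, 4.63 and 3.11 CPM in number 3 of pca31, atrzf1 and WT, 1.29, 0.879 and 1.81 CPM in number 1 and 2.89, 1.14 and 0.798 CPM in number 2 (1.72 ± 0.36, edgeR adjusted p = 0.00231). HSFA1A, of the factors that start the response, had 4.39, 3.86 and 3.3 CPM in number 3, 1.26, 0.947 and 1.6 CPM in number 1 and 1.82, 0.789 and 1.26 CPM in number 2 (1.62 ± 0.32, adjusted p = 0.00152). Both factors were apart from the other numbers in all 3 genotypes.

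HSFA1B had 10.8, 13.2 and 16.1 CPM in number 3, 9.63, 11 and 10.1 CPM in number 1 and 4.19, 4.64 and 7.22 CPM in number 2, a change of 0.85 ± 0.17 (adjusted p = 0.002) with overlap. HSFA1D, of the same group, had 3.06, 4.45 and 3.03 CPM in number 3, 2.83, 3.01 and 2.77 CPM in number 1 and 4.74, 1.53 and 8.23 CPM in number 2, at -0.02 ± 0.40. HSFB2A, the most abundant factor and a class B member, had 17, 17.9 and 14.9 CPM in number 3, 10.6, 4.94 and 11.7 CPM in number 1 and 4.8, 9.68 and 6.8 CPM in number 2 (1.06 ± 0.27, adjusted p = 0.00753). HSFA3, which DREB2A is known to activate, had 4.02, 3.97 and 2.75 CPM in number 3, 2.54, 1.22 and 1.24 CPM in number 1 and 1.82, 2.45 and 2.48 CPM in number 2 (0.88 ± 0.32, adjusted p = 0.0405). HSFB2B (6.4 to 11 CPM) and HSFA2 (0 to 1.3 CPM) were not called. HSFA7B had 0 counts in all 9 libraries, which allows up to 0.0867 to 0.131 CPM per library, and HSFB1 stayed at or below 0.406 CPM. HSFB2B and HSFA3 overlap genes on the opposite strand by up to 352 and 486 bases.

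MBF1C, a transcriptional coactivator needed for heat tolerance, was the most abundant of the 5 remaining members, at 33.7, 30 and 32.2 CPM in number 3 of pca31, atrzf1 and WT, 14.5, 13.4 and 20.8 CPM in number 1 and 14.5, 7.93 and 13.3 CPM in number 2. Its number 3 libraries lay above the rest (1.23 ± 0.17, edgeR adjusted p = 0.000107). HSA32, needed to keep acquired heat tolerance, had 10.4, 9.18 and 10.6 CPM in number 3, 4.31, 5.75 and 2.99 CPM in number 1 and 3.35, 1.45 and 2.9 CPM in number 2 (1.59 ± 0.27, adjusted p = 0.000528). BAG6, a co-chaperone of the BAG family that binds calmodulin, had 5.58, 6.01 and 7.75 CPM in number 3, 3.03, 3.25 and 2.99 CPM in number 1 and 2.02, 0.964 and 1.43 CPM in number 2 (1.59 ± 0.26, adjusted p = 0.000431). The groups of HSA32 and BAG6 did not overlap either. Opposite-strand genes share up to 176 bases with MBF1C, 73 with DREB2A and 44 with HSFA1B and also overlap HSP101, and a gene on the same strand shares 113 with HSA32, so the same doubt applies to their counts.

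DREB2A, a regulator of drought and heat responses, had 10.4, 3.9 and 8.53 CPM in number 3, 3.77, 4.16 and 4.51 CPM in number 1 and 1.42, 1.62 and 1.72 CPM in number 2 (1.51 ± 0.27, adjusted p = 0.000881). Its atrzf1 library 3 lay within the range of number 1, unlike pca31 and WT. ROF2, an immunophilin that binds HSP90, had 4.85, 3.61 and 3.97 CPM in number 3, 3.28, 2.54 and 3.95 CPM in number 1 and 1.24, 1.4 and 0.126 CPM in number 2 (1.27 ± 0.44, adjusted p = 0.0322), so that numbers 3 and 1 overlapped. Some number 3 calls were lost when a single library was left out. HSFA3 (0.73 to 1.11) lost its call without any single one of WT libraries 1 and 3, atrzf1 libraries 1, 2 and 3, and pca31 libraries 2 and 3. HSP17.6A (1.82 to 3.95) lost it without WT library 1 or 3 or any atrzf1 library, and HSP17.6II (1.66 to 4.14) without WT library 2 or 3, any atrzf1 library or pca31 library 1. ROF2 (0.97 to 1.64) lost it without WT library 3, atrzf1 library 1 or 3, or pca31 library 1 or 3, HSP90.3 (-0.57 to -0.38) without WT library 3 or atrzf1 library 3, and HSFB2A (0.85 to 1.33) without atrzf1 library 3.

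In number 1 against number 2, 9 of the 30 tested members were called higher and 0 lower, against 22% of all genes called, 12.1% higher and 9.87% lower, and 26 of 30 had a log2 fold change above 0 (53.3% of all genes). The median was 0.74 over the members and 0.05 over all genes, and 15 members were higher without overlap (20.4% of all genes). In order of adjusted p, HSP70 came first with 1.65 ± 0.18 (edgeR adjusted p = 0.000173), then HSP90.1 with 1.27 ± 0.17 (0.000679), HSP90.3 with 1.02 ± 0.15 (0.00105) and HSP90.2 with 1.02 ± 0.16 (0.00151). Both housekeeping HSP90 genes were thus higher in number 1 than in number 2, with number 3 near number 2. DREB2A changed by 1.40 ± 0.34 (0.0139), HSFA1B by 0.97 ± 0.21 (0.00787), HSP18.2 by 1.18 ± 0.30 (0.0169), ROF2 by 1.91 ± 0.57 (0.0318) and BAG6 by 1.08 ± 0.33 (0.0348). HSC70-1, Hsp70-2 and AT3G09440 were not called, at -0.21 ± 0.18, 0.33 ± 0.20 and 0.59 ± 0.23. HSP17.6II at 2.90 ± 1.25, AT5G51440 at 1.75 ± 0.61 and HSP17.4 at 1.44 ± 0.48 missed the threshold (adjusted p = 0.118, 0.0589 and 0.0517), and DESeq2 called AT5G51440 and HSP17.4. Leaving out 1 library gave 2.31 (without WT library 1) to 6.0 (without pca31 library 2) for HSP17.6II, 1.15 (without WT library 2) to 2.3 (without atrzf1 library 2) for AT5G51440 and 0.83 (without WT library 2) to 2.03 (without pca31 library 2) for HSP17.4. Without atrzf1 library 2, HSFA1D was called lower, at -1.24 (edgeR adjusted p = 0.0421). BAG6 (0.83 to 1.40) lost its call without WT library 1 or 2, any atrzf1 library or pca31 library 1. The same held for ROF2 (1.22 to 2.49) without WT library 1 or 2 or atrzf1 library 1, and for HSP18.2 (1.06 to 1.39) without WT library 1, atrzf1 library 2 or pca31 library 1. DREB2A (1.16 to 1.63) lost it without WT library 2 or atrzf1 library 1, and HSFA1B (0.86 to 1.17) without atrzf1 library 2.

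Other chaperone and heat shock lists give the setting of these counts. In number 3 against numbers 1 and 2, 1 of 13 other cytosolic chaperones and co-chaperones was higher, Hop3 (2.90, edgeR adjusted p = 2.24e-07), a co-chaperone that links HSP70 and HSP90, and 1 was lower. Of 11 endoplasmic reticulum chaperones 3 were higher and 0 lower, and of 10 organelle chaperones 2 were higher and 4 lower. All 7 other small heat shock protein genes were called, 3 higher and 4 lower, and of 9 tested other heat shock factors 1 was higher and 3 were lower. Of 5 tested other heat-induced genes 2 were higher, among them DREB2C (3.08, adjusted p = 0.000331). Number 1 against number 2 gave 5 higher and 1 lower cytosolic, 6 higher organelle and 4 higher endoplasmic reticulum chaperones, with 0 lower in each of the last 2 lists. Over all tested genes the shares called in these comparisons were 45.7% and 22%.

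Tissue and clock markers moved with the same numbers, and their part in the heat shock results was not tested. In number 3 against numbers 1 and 2, 13 of 15 tested root genes were higher and 2 lower, with a median of 7.84. The 10 light harvesting and Rubisco small subunit genes summed to 19100, 24500 and 25500 CPM in number 3 of pca31, atrzf1 and WT. The sums were 68400, 74500 and 82100 CPM in number 1 and 41700, 65600 and 62700 CPM in number 2. Of these 10 genes 8 were called lower in number 3, 0 higher and 2 not called. LHCB2.1 and LHCB2.2, not called, and CAB2, called lower, were higher in every number 3 library than in any of number 2. LHCB2.1 was at 920, 1230 and 1740 CPM in number 3 and 130, 203 and 368 CPM in number 2. The 4 morning clock genes summed to 88.8, 99.3 and 92.2 CPM in number 3. In number 1 they summed to 80.3, 94.7 and 86.8 CPM, but in number 2 to 3.67, 1.62 and 3.9 CPM. PRR7 made up most of the sums in numbers 3 and 1, at 86.5, 97 and 87.3 CPM and 72, 80.4 and 71.2 CPM. PRR9 differed between these numbers, at 0.266, 0.437 and 0.433 CPM in number 3 and 3.22, 5.78 and 5.05 CPM in number 1. LHY was also lower in number 3 than in number 1. Of 5 evening clock genes, 3 were called higher and 1 lower in number 3, and 2 higher and 2 lower in number 1 against number 2. Root and green tissue sums of number 3 thus did not overlap those of the other numbers, while morning clock sums of number 2 lay below those of numbers 3 and 1. The 5 genes ROF2, BAG6, HSA32, DREB2A and MBF1C summed to 64.9, 52.7 and 63 CPM in number 3, 28.9, 29 and 35.2 CPM in number 1 and 22.5, 13.4 and 19.5 CPM in number 2. Of the 13 flower and pollen genes 10 were called lower in number 3. Their sums in libraries 3, 1 and 2 were 18.7, 157 and 174 CPM in pca31 and 20, 144 and 70 CPM in atrzf1. WT had 13.9, 10.5 and 16.2 CPM, so its sum was not lowest in number 3. All 13 were above 0 in pca31 and in atrzf1 against WT, with medians of 2.57 and 2.3 without the block. Between genotypes 0 were called without the block and at most 1 with it. By edgeR with the block 10 and 8 had an unadjusted p under 0.05, against 8.44% and 3.73% of all genes.

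**Figure D5:**
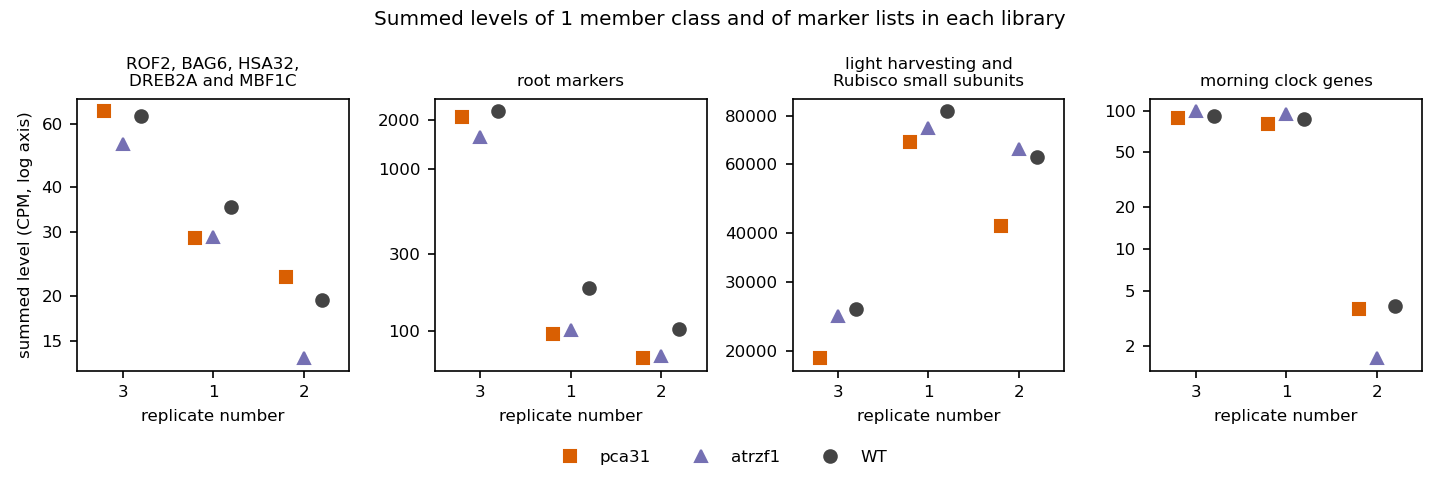
Summed level (CPM, log axis) of 5 members and of 3 marker lists in each library, by replicate number (x axis) and genotype (symbols). Number 3 libraries held 52.7 to 64.9 CPM of the 5 members, against 13.4 to 35.2 CPM in the rest. Root markers were high in number 3, and the morning clock sum, mostly PRR7 in numbers 3 and 1, was low in number 2.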

How the data were processed

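The deposited files hold raw read counts per gene, not normalized. Per the labels' protocols, libraries were made from total RNA with the Lexogen QuantSeq kit. The tools named in the submitters' processing notes are Bowtie2 and bedtools, and the build is TAIR10. The sources used here do not give versions, annotation or strand setting. Counts were fitted in R 4.3.3 with edgeR 4.0.16 (filterByExpr with minimum count 10 and total 15, TMM factors 0.819 to 1.25, glmQLFit and glmQLFTest, Benjamini-Hochberg over 20672 genes, threshold 0.05) on all 9 libraries, with genotype as the term, or with genotype and number for comparisons of numbers. Alternatives used DESeq2 1.42.0, limma 3.58.1 (voom), other scalings and filters, the replicate block and leaving out each library. CPM use TMM-scaled totals. A count of 0 allows up to 3 counts, and such floors cover counting error only. Same-numbered libraries deviated together from their genotype means (r from 0.592 to 0.848, against -0.737 to 0.288 between numbers), so the numbers pair the samples. Libraries differed beyond counting noise (smallest chi-square per degree of freedom 185).

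Sequences came from the RefSeq genome of TAIR10.1, read with Biopython 1.88. The members and lists were chosen with earlier results of these data known. Values in every library are given for members called in any comparison, the 5 largest changes of each, and the most abundant member of each class. The fits were tested on counts simulated from these libraries with seeded changes of equal fold size and the same spread for every gene. In the genotype simulation edgeR and limma-voom without the block recovered none of the seeded changes. DESeq2 without the block recovered a part, and all 3 tools with it nearly all. No column of per-sample values was left unused.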

Additional observations from a re-analysis of the deposited data

How the results depend on the processing

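Between genotypes, 0 members were called under every alternative run. Of the members 30 were tested in most runs, 35 without a filter, 13 among genes of at least 5 CPM and 29 with the block on numbers 1 and 2. All directions that turned belong to changes that were never called, and the cause was not tested. With libraries scaled by totals, the log2 fold change was 0.05 for HSP17.4 and 0.02 for HSFB2A in atrzf1 against WT, 0.15 for HSFB2A and 0.11 for MBF1C in pca31 against WT, and 0.12 for HSFB2A in pca31 against atrzf1, where the median of all genes also moved by up to 0.21. HSP90.2 in pca31 against WT was at -0.02 with median ratio size factors, -0.01 without a filter and -0.02 in DESeq2. HSFB2A in pca31 against atrzf1 was at 0.02 among genes of at least 5 CPM, and HSP17.4 in atrzf1 against WT at 0.41 in limma-voom. With the replicate block HSP17.4 in atrzf1 against WT was at 0.13, and at 0.18 in DESeq2; the block changed no call of a member. With the block on numbers 2 and 3 alone, atrzf1 against WT gave -0.04 for HSP101, 0.04 for HSC70-1, 0.69 for HSP17.4 and 0.4 for HSFB2A, and pca31 against WT gave 0.1 for MBF1C. With the block on numbers 1 and 3, HSFA1D was at 0.35 in atrzf1 against WT, HSP90.2 and HSP17.4 at -0.09 each in pca31 against WT, and HSP101 at -0.03 and HSFB2A at 0.42 in pca31 against atrzf1. With the block on numbers 1 and 2, HSP17.4 was at 0.18 in atrzf1 against WT and DREB2A at -0.19 in pca31 against atrzf1.

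Leaving out 1 library at a time, in fits without the block, turned these directions. Each such fit leaves 1 genotype without a library of that number, so the ranges also hold differences between numbers. In pca31 against WT the ranges were -0.56 to 0.3 for HSFB2A, -0.37 to 0.81 for HSP17.4, -1.19 to 0.83 for HSP90.1, -0.31 to 0.48 for HSP90.2 and -0.63 to 0.28 for MBF1C. In atrzf1 against WT they were -1.01 to 0.05 for DREB2A, -0.44 to 0.21 for HSC70-1, -1.05 to 0.05 for HSFA1D, -0.6 to 0.31 for HSFB2A, -0.11 to 0.59 for HSP101, -0.91 to 0.64 for HSP17.4, -1.43 to 0.42 for HSP90.1, -0.83 to 0.22 for HSP90.2 and -1.06 to 0 for MBF1C. In pca31 against atrzf1 they were -0.34 to 1.12 for DREB2A, -0.08 to 1.51 for HSFA2, -0.11 to 1.83 for HSFA7A, -0.53 to 0.54 for HSFB2A, -0.06 to 0.47 for HSP101, -0.2 to 1.07 for HSP17.4, -0.08 to 3.74 for HSP17.6A, -0.53 to 0.62 for HSP70, -0.52 to 1.17 for HSP90.1, -0.06 to 0.84 for HSP90.2 and -0.26 to 0.97 for MBF1C.

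In number 3 against numbers 1 and 2, 24 members were called beside 9437 of all genes, 25 (21 higher, 4 lower) beside 10570 with scaling by totals and 23 beside 9929 in limma-voom. Among genes of at least 5 CPM, where 13 members remain to be tested, 11 were called beside 6965 of all genes, and 5 beside 4419 in number 1 against number 2. Leaving out 1 library gave 18 to 24 calls in number 3 against numbers 1 and 2, beside 6608 to 10215 of all genes, and 6 to 12 in number 1 against number 2, beside 1839 to 6259, with 6 each without WT library 1 and without atrzf1 library 1 and 12 without pca31 library 2. At this depth 6 members had too few counts to be tested.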
